A study of Rattus norvegicus with 18 samples.

Results

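The genes described here encode the enzymes and anchors of cyclic nucleotide signalling, as measured in rat hippocampus. The members were taken by gene symbol. A probe set belonged to the group if its single gene symbol started with Adcy, Pde followed by a digit, Prkar, Prkac, Akap, Rapgef or Gucy. This gave 84 probe sets for 61 of the 10412 genes that the array names. The probe set with the highest mean signal stood for each gene, and 18 genes had further probe sets, which are reported apart. The prefixes also take in a few genes that are not cyclic nucleotide enzymes. Adcyap1 encodes the neuropeptide PACAP and Adcyap1r1 its receptor, which raises cAMP. Pde4dip encodes a scaffold protein of the Golgi and centrosome, and Pde6d a protein that carries prenylated cargo.

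Total RNA of hippocampus was hybridised to 18 Affymetrix arrays, 1 per sample, in a study of learning deficits after fetal alcohol exposure in rats. A sample had an alcohol, an isocaloric or a control diet, and came from animals that were naive or had undergone a training that the labels abbreviate as CFC. The alcohol diet had 4 naive and 4 trained arrays, the isocaloric diet 2 naive and 4 trained, and the control diet 2 of each, which makes 6 groups. The labels are silent on strain, age, sex, litter, the interval after training and whether each array was a separate animal. The p-values therefore cover only the spread among these arrays, part of which may be technical.

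Cyclic AMP is made by adenylyl cyclases, most of which answer to G proteins, and cyclic GMP by guanylyl cyclases, of which the soluble form is the receptor for nitric oxide. Phosphodiesterases break both messengers down. Cyclic AMP releases the catalytic subunits of protein kinase A (PKA) from its regulatory subunits, and A-kinase anchoring proteins hold the kinase at chosen sites in the cell. It also acts without PKA, through the exchange factors Rapgef3 (Epac1) and Rapgef4 (Epac2), which load the small GTPase Rap with GTP. In hippocampal neurons this pathway takes part in long-lasting synaptic potentiation and memory, partly through phosphorylation of CREB, which binds the cAMP response element (CRE).

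The sequences of 2 promoters are shown because one belongs to Rapgef4, the member that differed most clearly between the alcohol and isocaloric diets, and the other to Akap17a, the member with a full CRE. Each is the 250 bases before the gene's annotated start in RefSeq, build GRCr8, written 5′ to 3′ on the gene's strand. Rapgef4 lies on the plus strand at chr3:77216797-77217046 and Akap17a on the minus strand at chr12:21428248-21428497. Capitals mark the CRE, TGACGTCA, a palindrome that reads the same on both strands.
Rapgef4: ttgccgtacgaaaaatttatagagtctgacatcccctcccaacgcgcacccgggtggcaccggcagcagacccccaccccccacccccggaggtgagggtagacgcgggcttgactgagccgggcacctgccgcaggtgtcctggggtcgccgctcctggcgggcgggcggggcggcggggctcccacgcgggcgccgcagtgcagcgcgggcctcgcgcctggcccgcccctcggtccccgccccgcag
Akap17a: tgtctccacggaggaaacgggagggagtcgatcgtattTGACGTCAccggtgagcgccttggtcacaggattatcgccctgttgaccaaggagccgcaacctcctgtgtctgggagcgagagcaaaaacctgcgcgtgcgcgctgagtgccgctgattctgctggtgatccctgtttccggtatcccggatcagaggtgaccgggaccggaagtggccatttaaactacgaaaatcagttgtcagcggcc
The CRE of Akap17a begins 212 bases before the start. The Rapgef4 window holds neither the CRE nor its half-site, TGACG or CGTCA, which is contained in the CRE. Over windows of the same length, 1 of 60 promoters of 47 member genes held the CRE, against 1.59% of 33469 promoters of all genes. The half-site was in 9 of those 60 (15%) and in 18.2% of all. A match of letters is a description, not a binding site.

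Of the 61 genes, 40 passed the filter on low signal, which kept probe sets whose mean level was above the 40th percentile, and 21 did not. All 4 PKA regulatory subunits and both catalytic subunits passed, as did PACAP and its receptor. Among the adenylyl cyclases, Adcy2, Adcy3, Adcy5 and Adcy6 passed. Adcy8, a calcium-stimulated cyclase, had a mean signal of 37.4 and fell under the filter with Adcy4 and Adcy10. Of 9 guanylyl cyclase genes only Gucy1a1 and Gucy1b1 passed, which encode soluble subunits. The soluble subunits Gucy1a2 and Gucy1b2 and the 5 membrane forms fell under the filter. The filter kept 12 of 19 genes with a Pde symbol (Pde4dip and Pde6d among the 12), 10 of 13 anchors and 4 of 5 Rap exchange factors. Akap5, the anchor of the postsynaptic density, had a mean signal of 31.3 and fell under it. Levels are not compared between genes, because probe sets differ in how brightly they report the same amount of RNA.

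All arrays had been scaled to a mean near 150 after trimming 2% of values at each end, and their summed signal lay between 2.92e+06 and 3.13e+06. Within groups, arrays correlated at 0.965 to 0.982 in log2 signal. Control naive 1 and control trained 2 were written with fewer digits than the other 16 arrays and are the samples whose processing notes name MAS5. Transthyretin (Ttr), which marks choroid plexus, read 5927 to 7331 on 4 arrays (alcohol trained 4, isocaloric trained 3, alcohol naive 2 and control trained 1) and 62.5 to 755 on the other 14. Markers of hippocampal neurons were present, with 8 of 10 listed genes above the filter.

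The first comparison sets alcohol against a diet matched for calories. Averaged over trained and naive samples, 3 of 40 members (7.5%) passed an adjusted p of 0.05, against 3.06% of 9519 probe sets tested (1.47% higher and 1.59% lower). Rapgef4 and Prkar2a were lower in alcohol samples and Pde1b was higher. The median difference over the members was -0.04 on the log2 scale, against -0.02 over all probe sets. Of the 40, 29 differences were negative and 11 positive, but this balance follows the scaling: with arrays centred on their medians 17 were negative and 23 positive. Over all probe sets the rises were 48.1% of calls as deposited and 88.4% after that centring.

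Rapgef4 (Epac2), the cAMP-gated activator of Rap, had the lowest adjusted p of the members. Its signal was 251, 181, 158 and 111 on the alcohol trained arrays and 186, 199, 142 and 188 on the alcohol naive arrays. It was 285, 261, 305 and 274 in isocaloric trained and 377 and 355 in isocaloric naive samples. Every alcohol array lay below every isocaloric array, and alcohol trained 4 was the lowest of all 18. The fitted difference was -0.87 on the log2 scale (SE 0.13, adjusted p = 0.00427), a level 0.548 times that of isocaloric samples. In bulk tissue, fewer cells that express a gene and less RNA in each cannot be told apart.

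Prkar2a encodes a type II regulatory subunit of PKA, which binds anchors tightly. It read 168, 164, 153 and 180 in alcohol trained and 215, 194, 207 and 188 in alcohol naive samples. The isocaloric trained arrays read 217, 207, 216 and 203 and the isocaloric naive arrays 260 (259.7) and 238. All 8 alcohol arrays were below the isocaloric mean, although the naive alcohol arrays overlapped the trained isocaloric ones. The difference was -0.32 (SE 0.06, adjusted p = 0.0166), a smaller change than that of Rapgef4 with a smaller spread. The other tested probe set of Prkar2a, which is dimmer, differed by 0.13 (SE 0.12, adjusted p = 0.555) and did not pass. Prkar2b, the other type II subunit, differed by -0.20 (SE 0.10, adjusted p = 0.239), Prkar1a by -0.03 and Prkar1b by 0.10, and none of these passed.

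Pde1b, a phosphodiesterase switched on by calcium and calmodulin that hydrolyses both messengers, was higher in alcohol samples. Its signal was 91.0, 63.7, 121 and 154 in alcohol trained and 57.9, 113, 108 and 99.7 in alcohol naive samples. It was 37.1, 75.5, 101 and 109 in isocaloric trained and 23.6 and 25.8 in isocaloric naive samples. The isocaloric naive pair stood far below all alcohol arrays, whereas the isocaloric trained arrays overlapped them. The difference was 1.04 (SE 0.22, adjusted p = 0.0199), or 2.06 times the isocaloric level. Of the 8 alcohol arrays, 7 lay above the isocaloric mean of their own training state. Pde1b is abundant in striatum. The list of striatal markers holds 10 symbols, of which Drd1 and Drd1a name the same gene. Of the 10, 5 were tested, among them the member Pde10a. In limma 0 of these 5 passed and 0 had an unadjusted p under 0.05. The summed signal of the 8 measured ones was 876.5 to 1067 in alcohol and 988.5 to 1086 in isocaloric samples, and their part in the Pde1b difference was not tested.

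**Figure D1:**
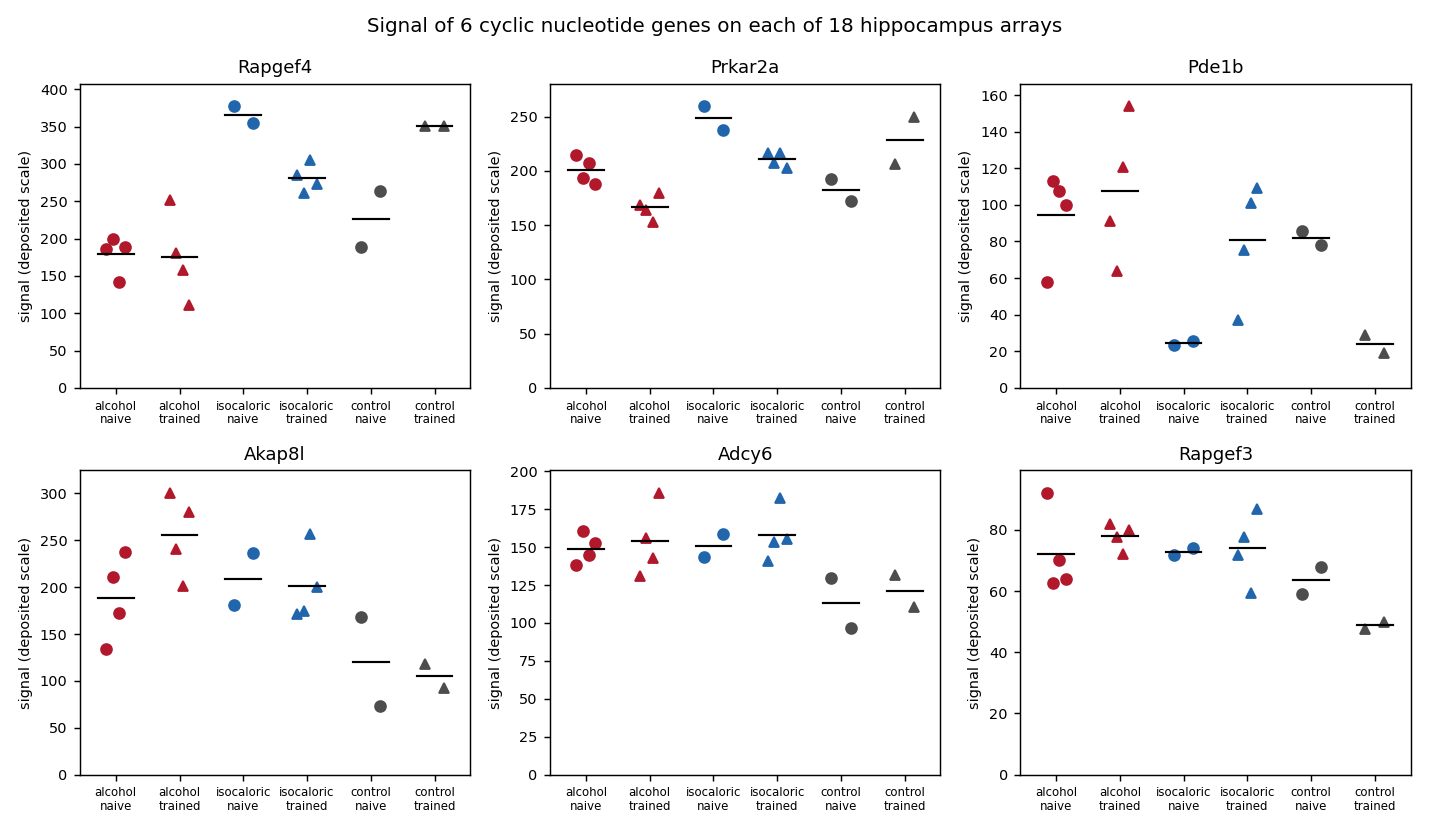
Signal on the deposited linear scale (vertical axes, from 0) of 6 genes in the 6 diet and training groups, with 1 point per array, circles for naive and triangles for trained samples, and a bar at each group's mean. Rapgef4 is at most 251 on the 8 alcohol arrays and at least 261 on the 6 isocaloric arrays, and Pde1b lies between 19.1 and 29.0 in isocaloric naive and control trained samples.

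The other 37 tested members did not pass in this comparison, although 7 of them had an unadjusted p under 0.05. With the 3 that passed this made 10 of 40 (25%), against 21.7% of all probe sets, a share near the background. All 7 were lower in alcohol samples: the anchor Akap10 (-0.26, adjusted p = 0.0792), the cAMP phosphodiesterase Pde4d (-0.28, 0.107), the soluble guanylyl cyclase subunit Gucy1b1 (-0.27, 0.117), PACAP (-0.22, 0.168), Adcy2 (-0.16, 0.194), Pde6g (-0.28, 0.199) and Rapgef5 (-0.16, 0.199). Gucy1b1 read 211 to 342 in alcohol samples (median 312) and 308 to 409 in isocaloric samples (median 385), so the diets overlapped. Close to 0 were Pde1a (-0.00), calcium-dependent like Pde1b, Akap1 (-0.00), Prkaca (-0.02) and Rapgef3 (0.03), the other Epac gene.

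The call of Rapgef4 was lost under 1 of 30 alternatives, and those of Prkar2a and Pde1b under 4 each. Without isocaloric naive 1 or without isocaloric naive 2, it alone passed (-0.85, adjusted p = 0.0468, and -0.89, 0.0332), and it alone passed without the 4 arrays high in Ttr. The log2 ratio of the 3′ to the 5′ Gapdh probe set, a sign of RNA integrity, was 0.09 to 0.48 on alcohol arrays (median 0.23) and 0.06 to 0.18 on isocaloric arrays (median 0.14). With this ratio in the fit, 0 of 40 members passed, while the estimates stayed at -0.76 for Rapgef4 (adjusted p = 0.0585), -0.36 for Prkar2a (0.0585) and 0.94 for Pde1b (0.143). Hpca, 1 of 8 tested markers of hippocampal neurons, was 0.53 higher in alcohol samples (adjusted p = 0.0175), with a median of 0.12 over the 8. By group means, Nptx1 and Prox1 were lower in alcohol samples in each training state, and Neurod2 was lower in naive samples. The summed signal of that list, Hpca included, was 6615 to 8757 in alcohol and 6609 to 7666 in isocaloric samples. Aldoc, 1 of 7 astrocyte markers, was 0.36 higher (adjusted p = 0.0268), with a median of 0.13 over the 7. Their part in the members' results was not tested.

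Taken by training state, 0 of 40 members passed in either. In naive samples 0.0735% of all probe sets passed. There 5 of 40 members (12.5%) had an unadjusted p under 0.05, against 12.4% of all probe sets. The difference was 1.67 for Pde1b (SE 0.35) and -1.02 for Rapgef4 (SE 0.21), both with an adjusted p of 0.0598. For both genes the 4 alcohol and 2 isocaloric arrays did not overlap. In trained samples 0.399% of all probe sets passed, and 9 of 40 members (22.5%) had an unadjusted p under 0.05, against 14.7% of all. Rapgef4 differed there by -0.72 (SE 0.17, adjusted p = 0.0705), Prkar2a by -0.33 (SE 0.08, adjusted p = 0.0827) and Pde1b by 0.41. Neither Rapgef4 nor Prkar2a overlapped between the 4 alcohol and the 4 isocaloric trained arrays. How many of all probe sets were without overlap in groups of these sizes was not counted. For the subsets of arrays that follow, the share of all probe sets that passed is not given either. Without control naive 1 or control naive 2, which enter these comparisons only through the shared spread, 2 members passed in each state: Pde1b and Rapgef4 in naive, Prkar2a and Rapgef4 in trained samples. Of these genes 1 passed in naive samples without alcohol trained 1 or 4, isocaloric trained 1 or alcohol naive 1, and in trained samples without alcohol trained 1.

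The comparison of alcohol with the control diet shares its alcohol arrays with the comparison above, so the results are given side by side and not as independent of each other. Here 8 of 40 members (20%) passed, against 19.9% of all probe sets (11.3% higher and 8.61% lower), a share near the background. Adcy6, Akap1, Akap17a, Akap8l, Pde1b and Rapgef3 were higher in alcohol samples, and Pde4b and Rapgef4 were lower. The median difference was 0.08 over the members and -0.00 over all probe sets. Rises were 56.7% of all calls, and 46.4% with arrays centred on their medians. The 8 members kept their direction under that centring, and the call of Akap17a was lost.

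Akap8l, a nuclear protein related to the anchor Akap8, had the lowest adjusted p among these 8. Its signal was 300.5, 240.4, 201 and 280 (279.8) in alcohol trained and 134, 211, 173 and 237 in alcohol naive samples. It was 168 and 73.5 in control naive and 118 and 92.3 in control trained samples. Only alcohol naive 1 fell within the range of the controls. The difference was 0.96 (SE 0.18, adjusted p = 0.00209), or 1.95 times the control level. Akap8 itself differed by 0.08 (SE 0.09, adjusted p = 0.596).

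Other anchors rose by smaller amounts. Akap1, which places PKA on the outer mitochondrial membrane, read 115 to 136 in alcohol samples (median 124) and 97.0, 93.9, 104 and 100.3 in controls. The 8 alcohol arrays were all above the 4 controls, and the difference was 0.31 (SE 0.09, adjusted p = 0.0259). Akap17a, which binds PKA and takes part in splicing, read 90.4 to 124 (median 115) against 75.3, 91.3, 90.3 and 97.8. Its ranges overlapped, and it differed by 0.31 (SE 0.09, adjusted p = 0.0307). In all, 3 of 10 tested anchors rose and 0 fell, where 11.3% of all probe sets rose and 8.61% fell, and the call of Akap17a was lost under 10 of 29 alternatives.

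Among the cyclases and phosphodiesterases, Adcy6, a cyclase inhibited by calcium, read 131 to 186 in alcohol samples (median 149) and 129, 96.4, 132 and 111 (110.5) in controls. Only the lowest alcohol array lay within the range of the controls, and the difference was 0.36 (SE 0.10, adjusted p = 0.01997). The other tested probe set of Adcy6, at 53.8 to 101 in alcohol samples and 58.1 to 75.9 in controls, did not pass. Adcy2, Adcy3 and Adcy5 did not pass. Pde1b was 1.01 higher than in controls (SE 0.24, adjusted p = 0.00904), but the controls differed among themselves, with 85.7 and 78.2 in naive and 29.0 and 19.1 in trained samples. Pde4b, a cAMP phosphodiesterase, read 220 (219.7) to 262 in alcohol samples (median 240.3) and 254, 283, 276 and 333 in controls. On 3 alcohol arrays it was above the lowest control, and it differed by -0.24 (SE 0.08, adjusted p = 0.0323). The other tested probe set of Pde4b, at 63.3 to 133 in alcohol samples and 103 to 134 in controls, did not pass. Pde2a, which cGMP stimulates, was 0.24 higher without passing (adjusted p = 0.0712), and so was Pde10a (adjusted p = 0.156).

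The Epac genes differed in opposite directions. Rapgef3 read 62.7 to 92.1 in alcohol samples (median 74.9) and 47.6 to 68.0 in the 4 controls (median 54.6), a difference of 0.39 (SE 0.11, adjusted p = 0.0225). Rapgef4 was 188 and 264 in control naive and 350.5 and 351 in control trained samples. Every alcohol array was below the control mean, but the low control naive 1 put the diets in overlap. The difference was -0.68 (SE 0.15, adjusted p = 0.00469), or 0.626 times the control level. Rapgef2 (-0.05) and Rapgef5 (-0.11) did not pass.

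These counts depended on single controls, of which there were 4. The counts that follow are of members alone. The share of all probe sets that passed in each setting is not set beside them. With control naive 2 left out, 2 members passed (Akap17a and Akap8l) and Rapgef4 had an adjusted p of 0.0508, and with control trained 2 left out 3 passed (Akap12, Akap8l and Rapgef4). With control trained 1 left out 5 passed (Adcy6, Akap8l, Pde1b, Pde4b and Rapgef4), and without the 4 arrays high in Ttr 3 passed (Akap8l, Pde4b and Rapgef4). Without control naive 1 the calls of Rapgef3 and Akap17a ended while 11 members passed. The call of Akap17a also ended without alcohol trained 1, and that of Pde4b without alcohol trained 2 or alcohol naive 1. Without the 2 arrays written with fewer digits 9 passed, of which Adcy6, Akap8l, Pde1b and Rapgef4 were among the 8. The 5 tested markers of endothelial and mural cells were all higher in alcohol than in control samples, and the summed signal of 7 measured markers was 854 to 1024 in alcohol, 844 to 991 in isocaloric and 532 to 596 in control samples. Their part in the members' differences was not tested.

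**Figure D2:**
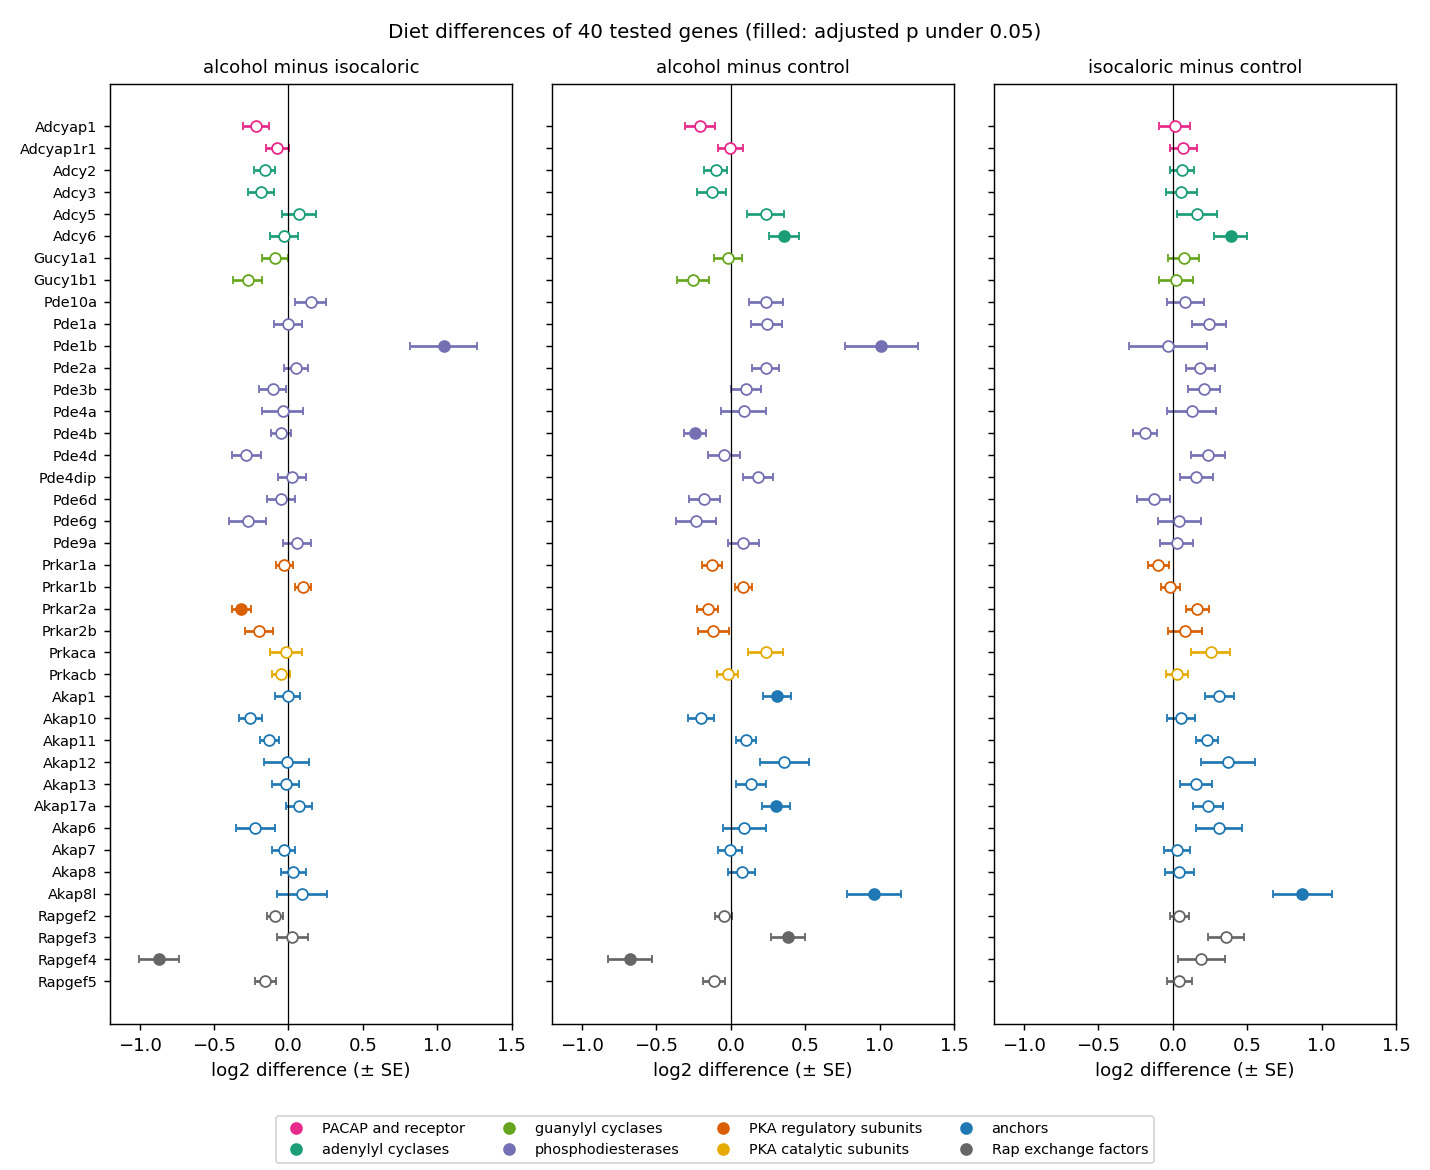
Log2 difference (horizontal axis) between diets, averaged over training, for the 40 tested genes ordered by role and coloured by it, with bars of 1 SE, and filled points for an adjusted p under 0.05. The left panel has 3 filled points, the middle 8 and the right 2, and Rapgef4 lies at -0.87 and -0.68 in the left and middle panels.

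The isocaloric and control diets differ without alcohol. In that comparison 2 of 40 members (5%) passed, against 7.05% of all probe sets (4.24% higher and 2.8% lower). Akap8l was 171, 175, 256 and 200 (199.9) in isocaloric trained and 181 and 237 (236.5) in isocaloric naive samples, above all 4 controls, with a difference of 0.87 (SE 0.20, adjusted p = 0.0163). Adcy6 read 141 to 182 in isocaloric samples (median 155), also above all 4 controls, with a difference of 0.39 (SE 0.11, adjusted p = 0.0392). No further probe set of either gene passed. Akap1 (0.31, adjusted p = 0.0620), Akap11 (0.23, 0.0606) and Rapgef3 (0.36, 0.0748) did not pass. Neither Rapgef4 (0.19) nor Pde1b (-0.03, adjusted p = 0.962) passed.

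Of the 40 members, 35 were higher in isocaloric than in control samples and 5 lower, with a median of 0.08 against 0.02 over all probe sets. With arrays centred on their medians, which moved the median of all probe sets by -0.11, 19 were higher and 21 lower, and the median was -0.03. Over all calls, rises made up 60.2% as deposited and 19.1% after centring. Akap8l rose under both scalings, and Adcy6 lost its call after centring. The counts that follow are again of members alone, without the share of all probe sets in each setting. Leaving out control naive 2, control trained 2 or isocaloric naive 2 left 0 members past the threshold, leaving out control naive 1 gave 7, and leaving out isocaloric trained 2 gave 4. Akap8l alone passed without isocaloric trained 3 or 4, alcohol naive 3, isocaloric naive 1 or control trained 1. Without the 2 arrays written with fewer digits 7 passed. Without the 4 arrays high in Ttr 0 passed. The same 5 endothelial and mural markers were higher in isocaloric than in control samples, and their part here was not tested either. The log2 Gapdh ratio was 0.19 to 0.36 on control arrays (median 0.24), above all isocaloric arrays (0.06 to 0.18, median 0.14). It therefore differed along with diet in this comparison. With the ratio in the fit, the calls of Akap8l and Adcy6 were kept.

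Training itself moved no member past the threshold. Averaged over the 3 diets, 0 of 40 members passed in limma, against 0.0105% of all probe sets, and 1 (2.5%) had an unadjusted p under 0.05, against 5.95% of all. That gene was Pde3b, a cAMP phosphodiesterase inhibited by cGMP, which was 0.26 lower in trained samples (SE 0.08, adjusted p = 0.756). The differences over members ran from -0.26 to 0.15. No member passed in the test of whether training acted differently in alcohol and isocaloric samples, where 0% of probe sets passed and 1 member, Pde1b, had an unadjusted p under 0.05 (-1.25, SE 0.45, adjusted p = 1.00).

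Pde1b was the gene whose trained and naive samples differed most visibly, a contrast examined after its values were seen. In the isocaloric diet trained arrays were 1.40 higher than naive ones (SE 0.35, adjusted p = 0.275), and in the control diet they were 1.56 lower on the log2 scale (-1.56, SE 0.40, adjusted p = 0.176). In the alcohol diet the difference was 0.15 (SE 0.28, adjusted p = 0.922). The difference between isocaloric and control samples in the effect of training was 2.96 (SE 0.53, adjusted p = 0.0288), where 0.179% of probe sets and 1 of 40 members passed. The groups behind it hold 2 arrays each apart from 4 isocaloric trained ones. Leaving out isocaloric naive 1 or 2, isocaloric trained 3, control trained 1 or 2, or the 4 arrays high in Ttr ended the call, as did no filter on low values, array weights and a fit of only the groups compared. The call was lost under 9 of 29 alternatives, with adjusted p-values over all alternatives of 0.00812 to 0.145.

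Further probe sets of the same genes did not always follow the one with the highest mean. Of the 15 that were tested, from 12 genes, 8 (53.3%) were higher in alcohol than in control samples and 0 lower, against 11.3% of all probe sets higher. Between isocaloric and control samples 0 of the 15 passed in limma, but 10 (66.7%) had an unadjusted p under 0.05, against 25.1% of all probe sets, and the smallest adjusted p was 0.0506. The median difference of the 15 from controls was 0.27 in isocaloric and 0.26 in alcohol samples, which share those controls. For 6 genes only a further probe set passed: Adcyap1r1, Pde10a, Pde4dip, Prkacb, Prkar1a and Prkar2a. For 2 genes, Adcy6 and Pde4b, only the main probe set passed. For Akap8l the main probe set and 1 of 2 further ones passed. These further ones differed by 0.73 (SE 0.17, adjusted p = 0.00849) and 0.16 (SE 0.18, adjusted p = 0.548). Probe sets of a gene can read different transcripts or transcript ends, and the sources used here do not say which of them each one reads.

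Prkar1a, a type I regulatory subunit of PKA, had the lowest adjusted p among these. Its dimmest probe set read 746, 798, 905 and 911 in alcohol trained and 935, 823, 954 and 899.7 in alcohol naive samples. The controls read 677, 643 (642.5), 528 and 599, and the isocaloric arrays 644 to 798 (median 743). All alcohol arrays were above all controls, with a difference of 0.51 (SE 0.07, adjusted p = 0.000312). They were also all above the isocaloric mean, though the ranges overlapped, with a difference of 0.26 (SE 0.07, adjusted p = 0.0425), a call that ended in 16 of 30 alternatives, among them leaving out any of 11 single arrays. The brightest probe set of Prkar1a differed by -0.12 from controls (adjusted p = 0.194) and by -0.03 from isocaloric samples (adjusted p = 0.841). The remaining one differed by 0.01 from controls and by -0.14 from isocaloric samples (adjusted p = 0.128), the opposite direction to the dimmest, and it passed as lower under array weights and quantile normalization.

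Prkacb, a catalytic subunit of PKA, also differed between its probe sets. Its further probe set read 210 (209.7) to 281 in alcohol samples (median 235), 151 to 263 in isocaloric samples (median 214), and 188, 121, 116 and 172 in controls. Alcohol and control arrays did not overlap, and the difference was 0.68 (SE 0.14, adjusted p = 0.00348). The brightest probe set differed by -0.02 (SE 0.07, adjusted p = 0.865). The 2 further probe sets of the PACAP receptor Adcyap1r1 were 0.44 and 0.62 higher (adjusted p = 0.0283 and 0.0137), against -0.00 on the brightest. A further probe set of Prkar2a was 0.55 higher than in controls (SE 0.13, adjusted p = 0.00946), while the brightest was 0.15 lower on the log2 scale (-0.15, adjusted p = 0.135). For the subsets of arrays that follow, the share of all probe sets that passed is not given. The count of 8 was 2 without control naive 2 (Prkacb and Prkar1a), 4 without control trained 2 (Akap8l, Pde4dip, Prkacb and Prkar1a), and 4 without the 4 arrays high in Ttr (Akap8l, Pde10a, Prkar1a and Prkar2a).

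**Figure D3:**
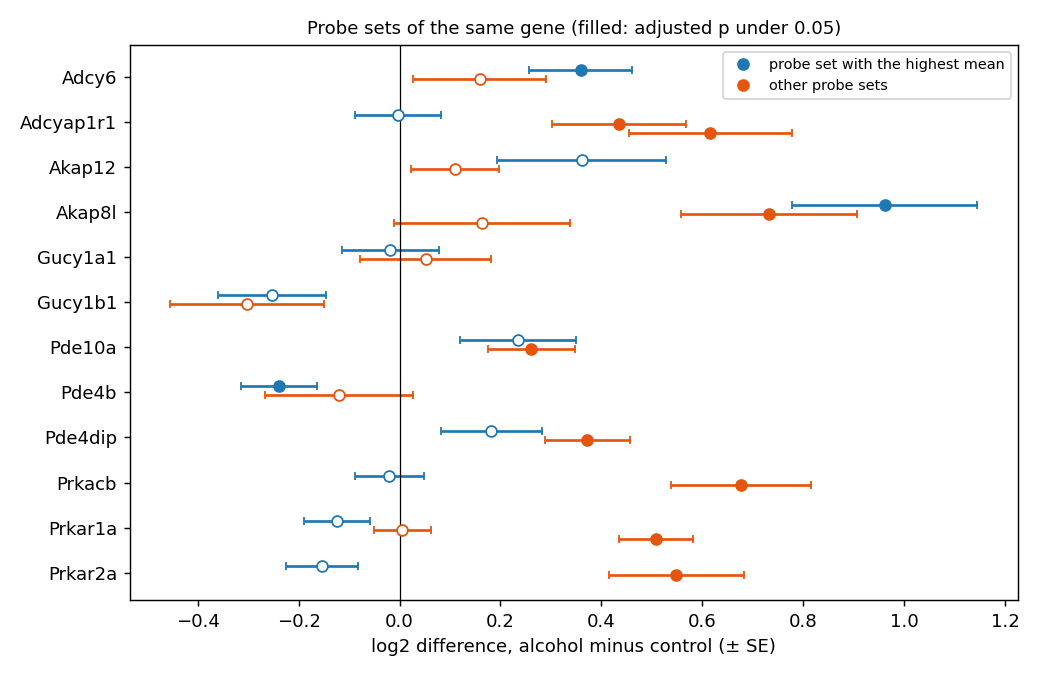
Log2 difference between alcohol and control samples (horizontal axis, bars of 1 SE) for every tested probe set of the 12 genes with more than 1, with filled points for an adjusted p under 0.05. For Prkar1a and Prkacb the brightest probe set (blue) lies near or below 0 while a further one (orange) lies at 0.51 and 0.68.

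**Figure D4:**
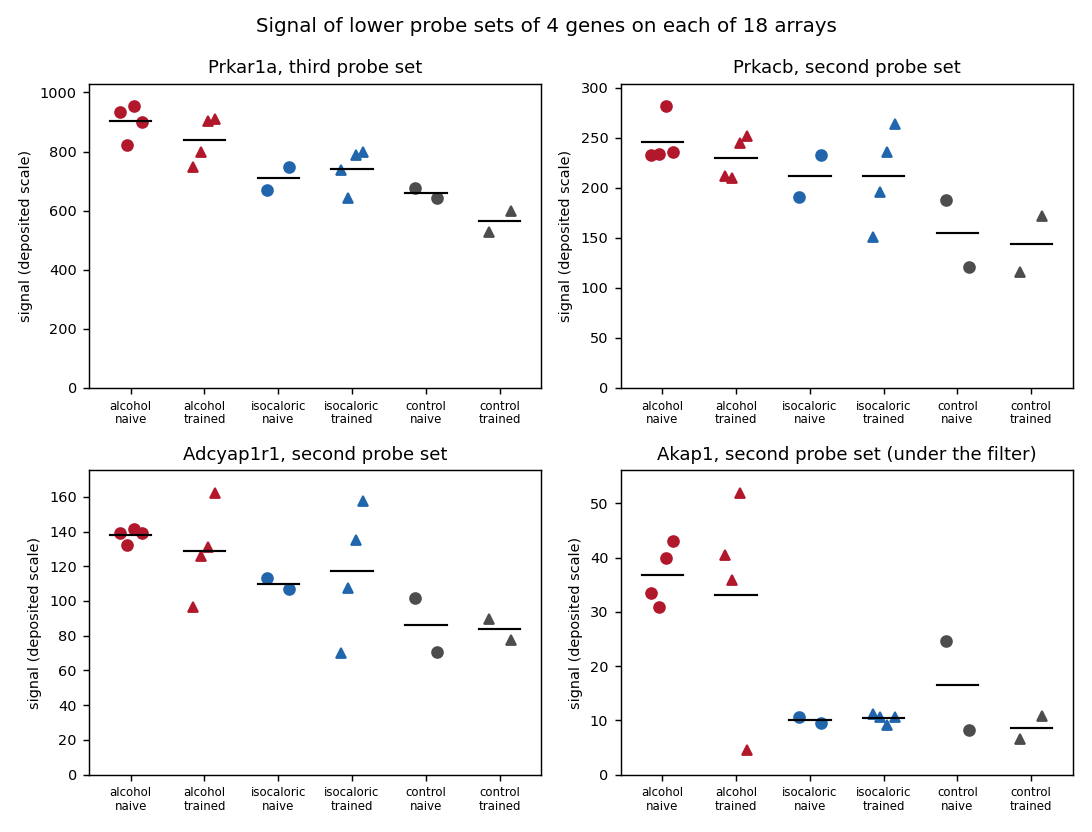
Signal on the deposited linear scale (vertical axes, from 0) of dimmer probe sets of 4 genes, with 1 point per array, circles for naive and triangles for trained samples, and a bar at each group's mean. All alcohol arrays lie above all controls for Prkar1a and Prkacb, and 7 of 8 alcohol arrays of the Akap1 probe set lie above 30 while all isocaloric arrays lie below 12. The controls of the Akap1 probe set lie at 24.7 and 8.25 (naive) and 6.49 and 10.7 (trained).

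In a fit without the filter on low signal, 2 of the 21 members under it passed between alcohol and control samples. Between isocaloric and control samples 1 passed, and between alcohol and isocaloric samples 0 passed. Of 8 further probe sets under the filter, 1 passed between alcohol and control samples. With the filter, 19.9%, 7.05% and 3.06% of all probe sets passed in these 3 comparisons. The shares of all probe sets without the filter are not given here. In alcohol against control samples Rapgef1, an exchange factor for Rap that does not bind cAMP, was 1.17 higher (SE 0.32, adjusted p = 0.0296), with 17.3 to 42.0 in alcohol samples and 4.87 to 15.2 in controls. Its other probe set differed by -0.16 (SE 0.34, adjusted p = 0.823). Gucy2f, a retinal guanylyl cyclase, differed by -0.88 (SE 0.25, adjusted p = 0.0318) at signals of 1.57 to 17.8, near the constant added before taking logs. Adcy4 was 1.12 higher in isocaloric than in control samples (SE 0.23, adjusted p = 0.0178), with 17.1 to 31.3 against 2.57 to 12.1. A further probe set of Akap1 read 30.9 to 51.9 on 7 alcohol arrays and 4.48 on alcohol trained 4, against 9.15 to 11.1 on the 6 isocaloric arrays. The controls read 24.7 and 8.25 (naive) and 6.49 and 10.7 (trained). This Akap1 probe set differed by 1.21 between the alcohol and isocaloric diets (SE 0.31, adjusted p = 0.0625) and by 1.11 from controls (adjusted p = 0.0466). At such low signals, background makes up an unknown part of each value.

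Of 76 symbols of genes that act with these members (receptors, G proteins, PKA inhibitors and targets, cGMP effectors, HCN channels and Rap proteins), 67 were measured and 38 were tested. Drd1 and Drd1a, both listed, name the same gene. Between the alcohol and isocaloric diets 0 of 38 passed in limma, against 3.06% of all probe sets, and 5 (13.2%) had an unadjusted p under 0.05, against 21.7%. Between alcohol and control samples 6 were higher and 3 lower (23.7%), again close to the 19.9% of all probe sets. The higher ones included Gnao1, a G protein alpha subunit (0.38, adjusted p = 0.00752), the inhibitory receptors Htr1a (0.58, 0.00121) and Gabbr2 (0.47, 0.00391), Crebbp, the coactivator of CREB (0.37, 0.0125), and Rap2b (0.47, 0.00141). The lower ones were Rap1a, a target of the Epac proteins (-0.29, 0.0227), the cannabinoid receptor Cnr1 (-0.22, 0.0154) and the PKA inhibitor Pkia (-0.18, 0.0289). Between isocaloric and control samples 5 were higher and 0 lower (13.2%), against 7.05% of all probe sets: Gnao1, Htr1a, Gabbr2, Rap2b and Rap1gap, in a comparison that shares its controls with the one before.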

How the data were processed

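The authors deposited a linear intensity for each probe set on each array, already scaled to a common trimmed mean. The submitters' processing notes name MAS5 for 2 samples. For the rest the algorithm was not given in the sources used here. Of 15923 probe sets, 12789 had 1 gene symbol in the platform annotation, 312 several (among them 3 with a member's symbol, left out) and 2822 none. All 61 member genes matched a RefSeq gene table (GRCr8), with 0 symbols changed. Signal was analysed as log2(value + 6.06), the 10th percentile of all values, which understates fold changes of dim probe sets. Those under the 40th percentile of mean level and the 57 Affymetrix controls were left out, leaving 9519. limma 3.58.1 (R 4.3.3) fitted the 6 group means over all 18 arrays with eBayes and a trend, with two-sided tests and Benjamini-Hochberg adjustment over all probe sets of a comparison. The alternatives were other constants, filters and scalings, a replicate block, array weights, a Gapdh covariate and subsets of arrays. Named genes were the members past the threshold, the largest and smallest differences, the brightest and dimmest of each family, and a fixed list of pathway genes. The fit was tested on simulated data. Python 3.11.15 and pandas 2.3.3 were used for tables. The members and lists were chosen with earlier results of these data known. The number of arrays, 2 to 4 a group, limits the precision.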

Additional observations from a re-analysis of the deposited data

Results flagged for a closer look

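Among 36 named genes in the 3 groups of 4 arrays (108 sets of values), 3 sets had 1 array far from the other 3. Chance gives such a set about 1 time in 20, so 3 of 108 is no more than chance gives. Adcyap1, which encodes PACAP, read 89.3 on alcohol trained 1 and 106 to 108 on the other alcohol trained arrays. Akap17a read 83.6 on isocaloric trained 2 and 101 to 103 on the others. Akap6, an anchor of the nuclear envelope in muscle and neurons, read 76.7 on alcohol naive 2 and 95.2 to 98.6 on the others. The effect of training on Pde1b differed between isocaloric and control samples by 2.96 on the log2 scale in a test of the difference itself (adjusted p = 0.0288).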

How the results depend on the processing

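Of 14 member calls, all kept their direction in 415 estimates under alternatives, 335 also kept their side of the threshold and 80 lost it. The 0 counts for training and for its interaction held in all 29 and 30 alternatives. The counts below are of members alone. The share of all probe sets that passed can shift under the same alternative and is not given here. For alcohol against isocaloric (3 members), array weights gave 5, the Gapdh covariate 0, the set without the 4 arrays high in Ttr 1, and single arrays left out 1 to 4. In naive samples (0), log2(value + 32) gave 1, quantile normalization 2, array weights 3, the set without the 2 arrays written with few digits 1, only the groups compared 2, and single arrays left out 0 to 2. In trained samples (0), array weights gave 1, the set without those 2 arrays 1, and single arrays left out 0 to 2. For alcohol against control (8), a filter at the 60th percentile gave 5, array weights 3, the set without arrays high in Ttr 3, and single arrays left out 2 to 11. For isocaloric against control (2), quantile normalization gave 1, array weights 1, the set without few-digit arrays 7, that without arrays high in Ttr 0, only the groups compared 0, and single arrays left out 0 to 7. The filter at the 60th percentile left Akap17a, Pde1b and Rapgef3 untested and ended none of the other calls. Fewer samples are in the sets that leave arrays out, and the causes of the other shifts were not tested. The replicate block, the number in the titles as a factor, gave 4 members for alcohol against control and 1 for isocaloric against control, and Pde1b's difference in the effect of training was 2.63 with it. Same-numbered arrays of different groups had a median correlation of -0.03 in their deviations from group means (36 pairs, -0.23 to 0.13). For other pairs from different groups it was 0.01 (96 pairs). Of 18 arrays, 3 correlated best with their own number. In a group of 2 arrays the 2 deviations are exact opposites, so these values cannot decide whether the numbers pair the samples. The 2 arrays written with few digits are both controls, 1 naive and 1 trained. The other control of each group was written like the remaining arrays. Without those 2, each control group holds 1 array, and the part of that difference in the control comparisons was not tested. The alternative without arrays high in Ttr and the alternatives of Pde1b's training contrast were chosen after seeing the data.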
